A study of Homo sapiens with 18 samples.

Results

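The replication-dependent histone genes were examined in 18 tumour RNA libraries. A gene was counted as a member when its Entrez identifier mapped to H1-1 to H1-6, or to a symbol that starts with H2AC, H2BC, H3C or H4C and goes on with a number. This rule uses names and no measured value. It found 71 members among the 25343 gene rows of the tables, of which 6 encode linker histone H1, 18 H2A, 19 H2B, 13 H3 and 15 H4. Of these, 56 lie on chromosome 6, 14 on chromosome 1 and 1 on chromosome 12, and 2 are pseudogenes by the annotation (H2BC20P and H2AC2P). The tumours were xenografts of HCT116, an established human colon cancer line, grown in mice, and every tumour carried a knockout of PTDSS2. The 3 groups, of 6 libraries each, came from mice that received vehicle, 10 mg/kg or 30 mg/kg of the compound DS55980254. Mice were dosed orally, with 0.5% methylcellulose as the carrier, and their tumours were collected 24 h later. The series concerns an inhibitor of PTDSS1 in cancer cells without PTDSS2, and the labels give the compound only by its code. No tumour with intact PTDSS2 is analysed here, and the sources used here do not give the strain, sex and age of the mice or the number of knockout clones. The labels do not say that the 6 tumours of a group came from separate mice, so p-values measure the spread between these samples.

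Core histones H2A, H2B, H3 and H4 form the protein spool around which DNA is wound, and H1 binds the DNA between spools. A dividing cell makes most of this protein in S phase, from many near-identical genes that lie in clusters and are transcribed together under the factor NPAT. Their mRNAs have no introns and, unlike other mRNAs, usually end in a short stem-loop bound by SLBP in place of a poly(A) tail. The mRNAs are degraded when DNA synthesis stops. The libraries were made from total RNA and not from poly(A) RNA, so messages without a tail could enter them.

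The stem-loop is the sequence these mRNAs share and is shown first. A perfect stem of 6 base pairs around a loop of 4 bases was searched for in GENCODE 29 transcripts (GRCh38). It was found, in the forms listed here, in 29 of 71 members. A count over 19702 coding genes, made with a different search rule, gave 33 (0.167%). Histone members were not taken out of the coding genes, so 0.167% is not a separate background rate for the 29. Many reference transcripts of the other members stop at the end of the coding sequence, and none of these forms was looked for beyond the transcript. The forms differed by class. One form was in 17 members (H2A, H2B and H3), one in 4 (H2B and H3), one in 5 H4 members and one in 3 H4 members (H4C9, H4C14 and H4C15). The H2A, H2B and H3 stems pair GGCTCT with AGAGCC and the H4 stems pair GGCCCT with AGGGCC. One example of each form is given below, 5′ to 3′ in DNA letters, with the 2 arms of the stem in capitals.
H2AC13: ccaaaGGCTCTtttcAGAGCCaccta
H2BC4: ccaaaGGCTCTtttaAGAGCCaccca
H4C11: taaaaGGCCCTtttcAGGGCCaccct
H4C14: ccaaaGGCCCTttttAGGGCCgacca

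Promoters of 4 members are shown because they span the range of motifs found and include H2AC13, H4C14 and H1-4, whose values are given below. They were chosen after the values were seen. Each runs from 250 bases before to 50 bases after the start site (RefSeq, GRCh38.p14), 5′ to 3′ on the gene's strand. Capitals mark matches on either strand to ATTTGCAT (the octamer), TATAAA (the TATA box), CCAAT (the CCAAT box) and AAACACA (the H1 box), and neighbouring matches may overlap.
H1-4 promoter, chr6:26156079-26156378, plus strand: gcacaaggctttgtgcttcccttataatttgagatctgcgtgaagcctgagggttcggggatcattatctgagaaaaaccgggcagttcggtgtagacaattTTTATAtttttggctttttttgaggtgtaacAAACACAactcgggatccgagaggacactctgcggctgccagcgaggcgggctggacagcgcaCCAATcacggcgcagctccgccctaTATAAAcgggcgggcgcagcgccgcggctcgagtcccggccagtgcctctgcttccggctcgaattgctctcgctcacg
H2AC13 promoter, chr6:27807923-27808222, plus strand: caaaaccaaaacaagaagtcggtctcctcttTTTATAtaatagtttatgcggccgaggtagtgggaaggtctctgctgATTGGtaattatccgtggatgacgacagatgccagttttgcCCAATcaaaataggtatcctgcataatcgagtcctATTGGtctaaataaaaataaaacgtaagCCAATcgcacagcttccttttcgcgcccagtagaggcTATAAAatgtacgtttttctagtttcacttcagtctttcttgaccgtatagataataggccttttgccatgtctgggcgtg
H2BC11 promoter, chr6:27132746-27133045, minus strand: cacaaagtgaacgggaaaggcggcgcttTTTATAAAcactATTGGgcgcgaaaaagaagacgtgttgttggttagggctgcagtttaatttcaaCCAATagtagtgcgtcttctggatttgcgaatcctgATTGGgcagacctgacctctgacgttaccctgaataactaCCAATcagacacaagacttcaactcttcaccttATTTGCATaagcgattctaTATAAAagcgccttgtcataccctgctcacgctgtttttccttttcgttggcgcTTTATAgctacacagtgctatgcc
H4C14 promoter, chr1:149832407-149832706, plus strand: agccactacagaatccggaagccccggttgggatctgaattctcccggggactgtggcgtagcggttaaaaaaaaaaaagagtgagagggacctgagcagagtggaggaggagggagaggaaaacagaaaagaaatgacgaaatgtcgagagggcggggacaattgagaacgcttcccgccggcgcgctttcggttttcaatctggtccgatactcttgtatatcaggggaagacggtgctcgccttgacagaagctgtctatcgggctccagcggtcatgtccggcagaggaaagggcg

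RefSeq promoters were available for 64 members. The octamer was present in 26 of them, among which were 11 of 16 H2A and 14 of 18 H2B promoters but 0 of 6 H1 and 0 of 13 H4 promoters. It was present in 1.77% of all 35116 promoters. The CCAAT box was in every H1, H2A, H2B and H3 promoter examined (6, 16, 18 and 11) and in 3 of 13 H4 promoters, against 34.6% of all promoters. The TATA box was in 42 of 64 member promoters, against 11.5% of all, and the H1 box in 6 of 6 H1 promoters, against 5.64% of all. The printed H4C14 promoter held none of these letters. In the 11 H2A and H2B pairs described below, the start sites lay 194 to 248 bases apart on opposite strands. Their promoter windows overlap, so 1 site can be counted for both genes of a pair. A match is a description of letters and not of a bound site. The octamer was present in 17 of 44 promoters of members that were expressed enough to be tested and in 9 of 20 promoters of members that were not.

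Depth differed between libraries. Expected counts, the authors' estimated reads per gene, summed to between 3435435 and 8538793 in 17 libraries and to 433989 in 10 mg/kg replicate 2. That library also stood apart in its profile, with a mean correlation of 0.726 with the other libraries, against 0.942 to 0.954 for the rest. Its summed markers of other cell types were the highest, at 327 CPM for fibroblast genes and 94.1 CPM for endothelial genes, where the other 17 libraries had at most 111 and 22.9 CPM, and their part in its histone values was not tested. CPM is the count scaled to library size by the TMM method. Markers of colon epithelium summed to 5384 to 7121 CPM in vehicle tumours, 4214 to 7498 CPM with 10 mg/kg and 5766 to 7199 CPM with 30 mg/kg, and no marker list had a gene at 0 in every library. The low end at 10 mg/kg was replicate 2. PTDSS2 itself was at 4.97 to 12.03 CPM in vehicle tumours, 7.11 to 13.9 CPM with 10 mg/kg and 5.33 to 13.4 CPM with 30 mg/kg. These residual reads cannot check the knockout, since no tumour with intact PTDSS2 was analysed here. PTDSS1 averaged 76.8 ± 4.94 CPM in vehicle tumours, 64.7 ± 5.45 CPM with 10 mg/kg and 67.9 ± 4.54 CPM with 30 mg/kg (SD, n = 6 each) and did not pass the test at either dose (edgeR quasi-likelihood, adjusted p = 0.379 and 0.620). In 10 mg/kg replicate 2, 1014 counts fell on histone members, against at least 12748 in each other library, and 30 mg/kg replicate 5 stood above the other 30 mg/kg libraries in histone level. The sum of all members, class ratios, member calls and class medians are also given without 1 or both of these libraries. Other medians use all 18 libraries unless stated.

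Which histone genes these tumours used was uneven. Of the 71 members, 49 had enough counts to be tested, namely 2 of 6 H1, 14 of 18 H2A, 13 of 19 H2B, 9 of 13 H3 and 11 of 15 H4 genes. The other 22 never exceeded 6.42 CPM in any library, and 14 of them had a count in at most 5 libraries. H2BC9 and H2AC2P had no count in any library. Among tested members the mean level, scaled for length as CPM per kb, ran from 4.92 for H3C6 to 613 for H1-4, a 125-fold range with a median of 166. Only 10 members made up 50% of the summed CPM, and 32 made up 90%, in each of the 3 groups.

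Within H1, nearly all of the signal came from H1-4 and H1-2, the main somatic linker histones in these tumours, with mean levels of 613 and 544 CPM per kb. Together they took 99.8% of H1 CPM. H1-6, the testis form, came next at 1.47 CPM per kb, with a count in 17 of 18 libraries, and H1-1, H1-3 and H1-5 were lower still. H2A was spread more evenly, led by H2AC20 (382 CPM per kb), H2AC11 (374) and the identical rows H2AC18 and H2AC19 (367 each). H2BC18 (435), H2BC4 (291) and H2BC12 (208) led H2B, and H3C2 (465), H3C10 (223) and H3C14 (188) led H3. H4C11 (343), H4C3 (192) and H4C5 (174 CPM per kb) led H4.

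Many of the untested genes were neighbours. All 14 members on chromosome 1 were tested, but only 34 of 56 on chromosome 6 were. In order along chromosome 6, a run of 7 untested members (H1-3, H4C6, H4C7, H3C7, H2BC9, H3C8 and H2BC10) separated tested stretches on both sides. Shorter runs of 4 held H2AC1, H2BC1, H2AC2P and H1-1, and H2AC16, H1-5, H3C11 and H4C13. The single member on chromosome 12, H4C16, was expressed at 17.3 CPM per kb. For several untested genes the mean at 10 mg/kg was raised by replicate 2, where 1 count equals 2.14 CPM.

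**Figure D1:**
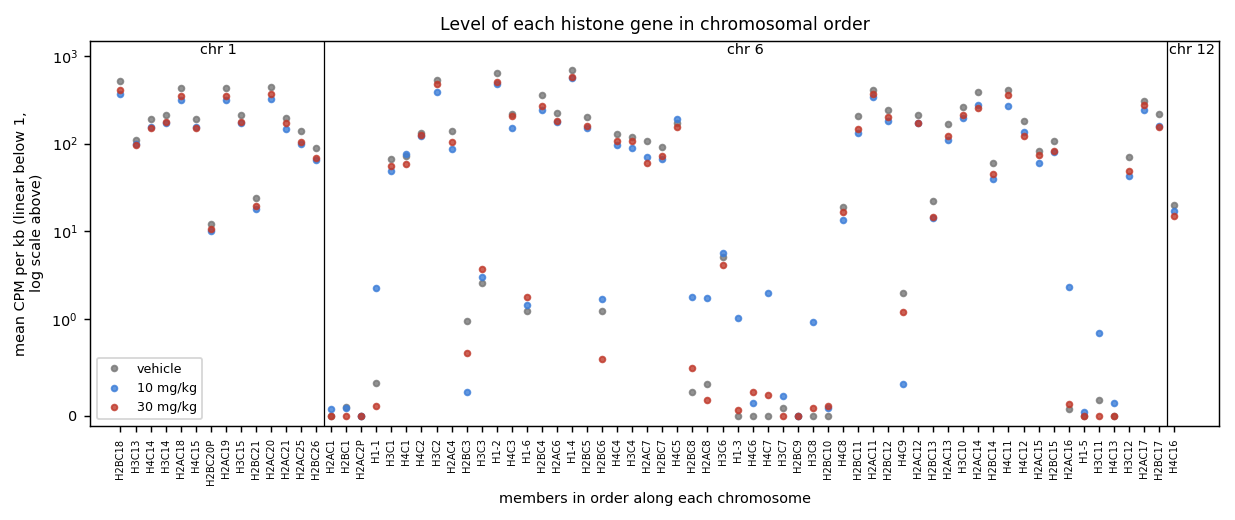
Mean level of each of the 71 members in CPM per kb (vertical axis, linear below 1 and logarithmic above) for vehicle, 10 mg/kg and 30 mg/kg (n = 6 each), in their order along chromosomes 1, 6 and 12. All 14 chromosome 1 members were expressed enough to be tested, while runs of 4, 7 and 4 neighbouring members on chromosome 6 were not.

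H2A and H2B genes often share one promoter region, and 11 such pairs with start sites within 500 bases on opposite strands were found. In 9 pairs both genes were tested, in 2 neither was, and in 0 pairs was only 1 tested. Expression within a pair was not equal. H2A was higher per kb in 7 of 9 tested pairs. The ratio of H2A to H2B level ran from 0.670 for H2AC6 over H2BC4 to 18.6 for H2AC20 over H2BC21, whose deposited mean transcript length of 2223 bases was the longest of the tested members. The ratio of 18.6 depends on that length, against 437 bases for H2AC20. Before scaling for length, H2AC20 and H2BC21 averaged 195 and 53.3 CPM in vehicle tumours. H2AC13 exceeded its partner H2BC13 by 7.86-fold.

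Counts of near-identical genes are uncertain. H2AC18 and H2AC19, H3C14 and H3C15, and H4C14 and H4C15 held the same value in every library, so the 49 tested rows hold 46 different measurements. Estimated counts can be fractions where a read matches several copies. Counts were whole within 0.005 in every library for 34 members and not whole in at least 9 libraries for 25. Fold changes below are therefore given for both kinds.

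Histone RNA was lower in tumours given the compound, with a summed level of 0.758 of the vehicle mean at 10 mg/kg and 0.815 of it at 30 mg/kg and the same direction in all 5 classes. Summed over the 71 members, vehicle tumours had 5143 (lowest), 5458 (median) and 5614 (highest) CPM, tumours at 10 mg/kg had 2169, 4470 and 5007 CPM, and tumours at 30 mg/kg had 4062, 4214 and 5659 CPM. Every 10 mg/kg tumour was below every vehicle tumour. At 30 mg/kg, 5 tumours were below every vehicle tumour, and replicate 5 alone was above the highest vehicle value. The group means were 5431 ± 176 CPM in vehicle tumours, 4115 ± 1067 CPM with 10 mg/kg and 4423 ± 610 CPM with 30 mg/kg (SD, n = 6 each). Without replicate 2 the mean at 10 mg/kg was 4504 ± 536 CPM (n = 5), and without replicate 5 the mean at 30 mg/kg was 4176 ± 80.5 CPM (n = 5). In bulk tumour RNA, fewer cells making histone mRNA and less of it per cell cannot be told apart. No p-value is given for these sums, since the members were chosen with earlier results of these data known.

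By class, H1 averaged 1011 ± 25.6 CPM in vehicle tumours, 800 ± 200 CPM with 10 mg/kg and 832 ± 104 CPM with 30 mg/kg (SD, n = 6 each). H2A averaged 1800 ± 101, 1345 ± 443 and 1452 ± 192 CPM in the same order of groups. H2B, its partner in the nucleosome, averaged 1150 ± 119, 826 ± 309 and 891 ± 116 CPM. The 10 mg/kg and vehicle ranges of H1 and H4 did not overlap, while those of H2A, H2B and H3 did. H3 averaged 821 ± 82.6 CPM in vehicle tumours, 627 ± 138 CPM with 10 mg/kg and 699 ± 178 CPM with 30 mg/kg. H4 averaged 649 ± 41.0, 517 ± 36.5 and 548 ± 93.5 CPM. Ratios to vehicle lay between 0.718 (H2B) and 0.798 (H4) at 10 mg/kg and between 0.775 (H2B) and 0.851 (H3) at 30 mg/kg. This order changed with 1 library left out. Without replicate 2 the ratios at 10 mg/kg lay between 0.794 (H4) and 0.862 (H1), with H2B at 0.817, and without replicate 5 those at 30 mg/kg lay between 0.751 (H2B) and 0.791 (H4), with H3 at 0.770. H2A took 33.1% of histone CPM in vehicle tumours, 32.0% at 10 mg/kg and 32.9% at 30 mg/kg. H4 took 24.4% in 10 mg/kg replicate 2, against 9.06% to 13.8% in the other 17.

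**Figure D2:**
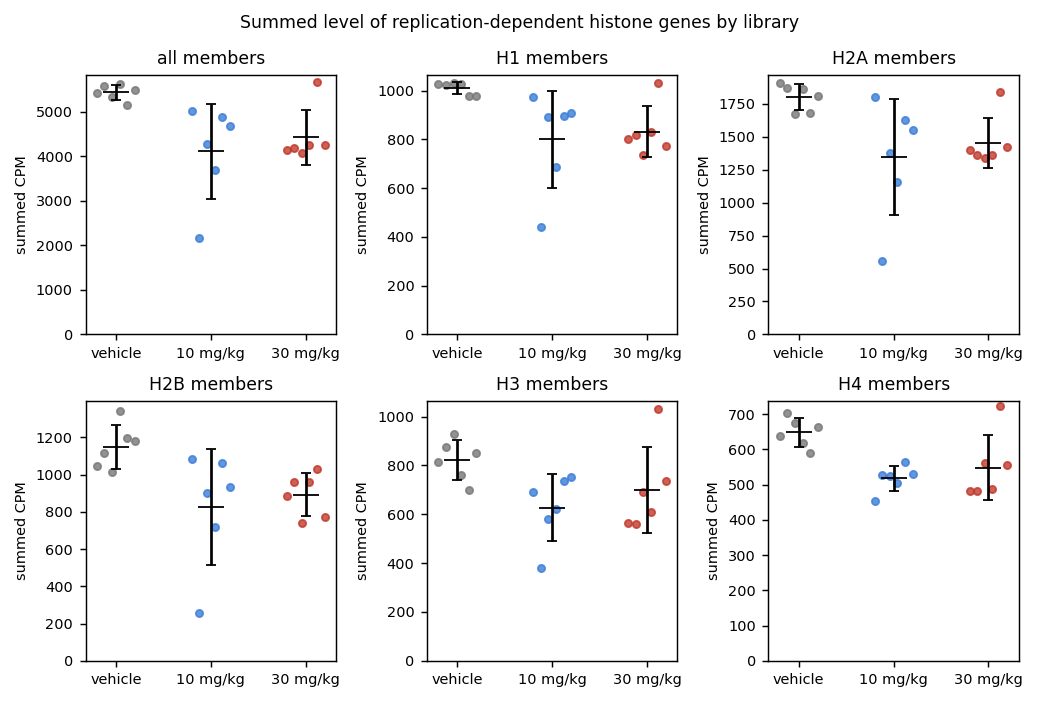
Summed CPM of all members and of each histone class (vertical axes from 0) in each library, by group, with the mean and SD over 6 libraries in black. All 10 mg/kg libraries lie below all vehicle libraries for the sum of all members, and 30 mg/kg replicate 5, at 5659 CPM, is the 1 dosed library above the vehicle range.

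At 10 mg/kg, 47 of the 49 tested members had a lower fitted level than in vehicle tumours, against 51.2% of all 14074 genes tested. These 49 rows hold 46 different measurements, and rows with identical counts are counted separately here and below. The median log2 fold change was -0.36 for members and -0.01 for all genes. By edgeR's quasi-likelihood test with Benjamini-Hochberg adjustment over all genes tested, 66 genes (0.469%) passed adjusted p under 0.05, 7 of them (0.0497%) lower and 59 (0.419%) higher. Of the members, 1 passed, H2AC13, and it was lower. At unadjusted p under 0.05, 22 members were lower and 0 higher, against 4.08% and 5.42% of all genes. Groups did not overlap for 3 members, H1-2, H2AC13 and H2AC4, all lower at 10 mg/kg, against 0.469% of all genes lower and 0.689% higher. H2AC4 was named after its values were seen. Medians by class were -0.33 for H1, -0.39 for H2A, -0.36 for H2B, -0.36 for H3 and -0.31 for H4.

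At 30 mg/kg, all 49 tested members had a lower fitted level than in vehicle tumours, against 50.2% of all genes, with a median log2 fold change of -0.30 for members and -0.001 for all genes. By the same edgeR test 87 genes (0.618%) passed, 7 of them (0.0497%) lower and 80 (0.568%) higher, and 0 were members. Unadjusted, 17 members were lower at p under 0.05 and 0 higher, against 3.72% and 4.18% of all genes. DESeq2 called 3 members (H2AC13, H4C14 and H4C15), all lower, among 179 genes (1.35% of those given an adjusted p), 38 of them (0.287%) lower. Limma-voom called 0 members among 107 genes (0.76%), 16 of them (0.114%) lower. With 1 library left out the edgeR test called members in the following settings, each of them lower than vehicle. Without 10 mg/kg replicate 2 it called 5 members (H1-2, H2AC13, H2BC18, H4C14 and H4C15) among 182 genes (1.29%), 43 of them (0.304%) lower. Without 30 mg/kg replicate 5 it called 2 members (H4C14 and H4C15) among 87 genes (0.612%), 14 of them (0.0985%) lower. Without vehicle replicate 3 it called 1 member (H2AC13) among 100 genes (0.704%), 12 of them (0.0845%) lower. Because H4C14 and H4C15 hold identical counts, their calls are 1 measurement in each setting. Groups did not overlap for 1 member, H1-2, which was lower, against 0.483% of all genes lower and 1.25% higher. By class the medians were -0.29 for H1, -0.30 for H2A, -0.37 for H2B, -0.26 for H3 and -0.26 for H4. Both dose comparisons use the same 6 vehicle libraries, so they are not independent of each other.

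Leaving out 10 mg/kg replicate 2 and 30 mg/kg replicate 5, an alternative chosen after seeing the data, changed how many members passed. Then 4 members passed at 10 mg/kg (H2AC13, H2AC4, H4C14 and H4C15) and 8 at 30 mg/kg, those 4 with H1-2, H2BC12, H2BC18 and H3C10, all lower than vehicle. H4C14 and H4C15, with identical counts, are 1 measurement in both counts. Calls among all genes also rose, to 135 (0.959%) at 10 mg/kg, 23 of them (0.163%) lower, and to 212 (1.51%) at 30 mg/kg, 66 of them (0.469%) lower. The medians over the 49 members were -0.27 at 10 mg/kg and -0.38 at 30 mg/kg, and 48 and 49 members were below vehicle. By class the medians at 10 mg/kg were -0.22 for H1, -0.27 for H2A, -0.27 for H2B, -0.29 for H3 and -0.35 for H4. At 30 mg/kg they were -0.36, -0.39, -0.44, -0.37 and -0.35 in the same order of classes. At 10 mg/kg H4 thus had the lowest class median here, but was the least lowered class with all 18 libraries.

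**Figure D3:**
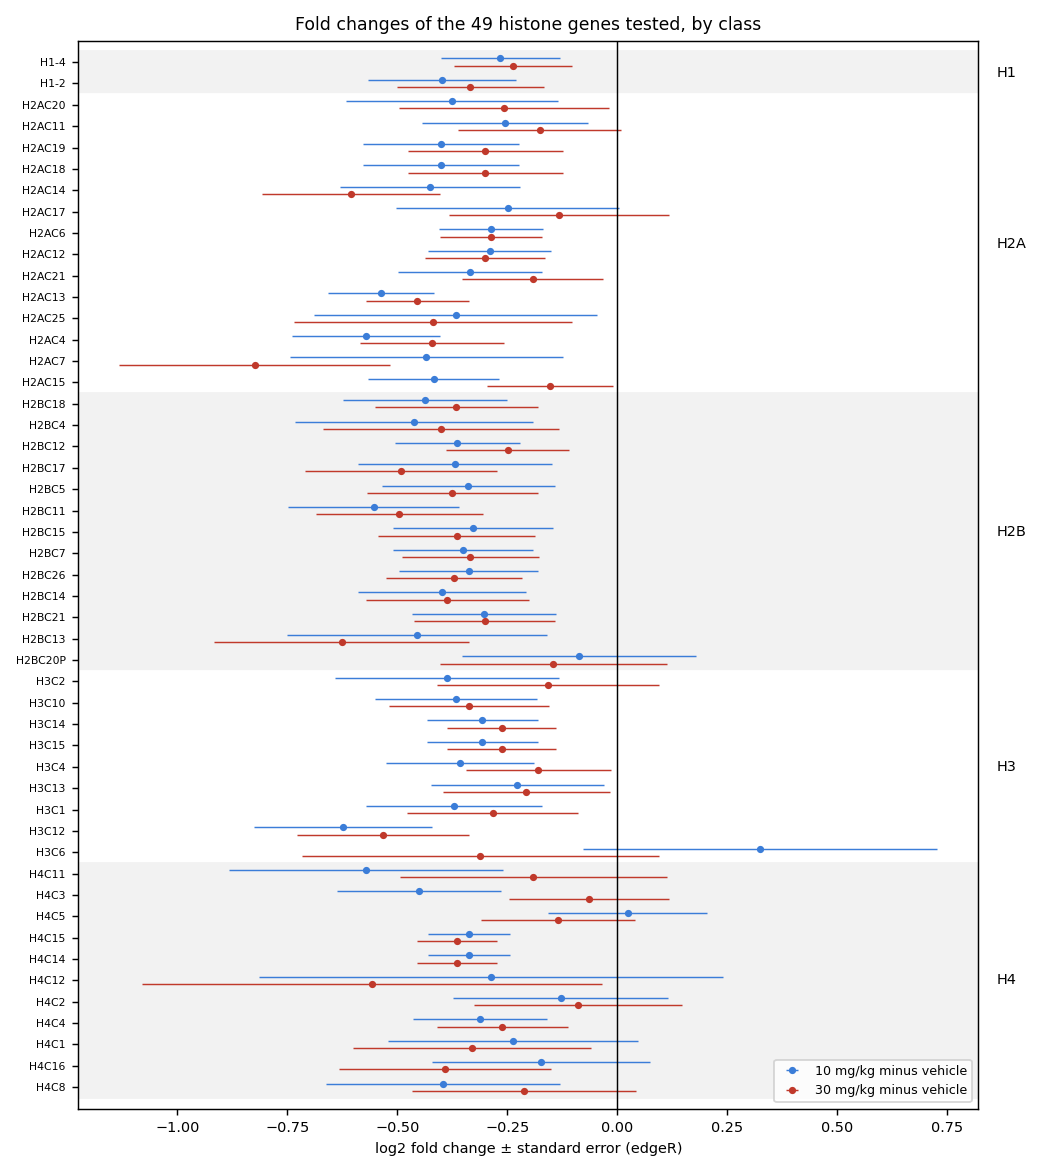
Log2 fold change against vehicle with its standard error (horizontal axis, edgeR) of the 49 members tested, for 10 mg/kg and 30 mg/kg, grouped by histone class. Points lie left of 0 for 47 members at 10 mg/kg and for 49 at 30 mg/kg, and H3C6 and H4C5 are the 2 on the right at 10 mg/kg.

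Fold changes of members grouped in other ways are set side by side here, with no test of their differences. They come from the fit of all 18 libraries. In the 24 tested members with counts that were not whole in at least 9 libraries, the medians were -0.37 at 10 mg/kg and -0.30 at 30 mg/kg. The 14 tested members with whole counts in every library had medians of -0.32 and -0.25 at the same doses. Members on chromosome 1 had medians of -0.34 and -0.30, and those on chromosome 6 had -0.37 and -0.32. The 15 members averaging at least 100 CPM had medians of -0.39 and -0.29, and the 34 tested members below that had -0.34 and -0.33. Members with an octamer in the promoter had medians of -0.37 and -0.33 (17 members) and those without it -0.34 and -0.30 (27 members). By stem-loop form, the medians were -0.37 and -0.34 for the form of H2AC13 (13 tested members), -0.35 and -0.37 for that of H2BC4 (3), -0.17 and -0.19 for that of H4C11 (5) and -0.34 and -0.36 for that of H4C14 (2, with identical counts).

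H1-4 (Entrez 3008) had 513, 538 and 586 CPM (lowest, median and highest) in vehicle tumours, 297, 473 and 601 CPM with 10 mg/kg and 405, 433 and 594 CPM with 30 mg/kg. The dosed groups overlapped vehicle, at 30 mg/kg through replicate 5 alone. The log2 fold change was -0.27 (SE 0.13, edgeR adjusted p = 0.552) at 10 mg/kg and -0.24 (SE 0.13, adjusted p = 0.746) at 30 mg/kg. H1-2 (Entrez 3006) had 443, 473 and 486 CPM in vehicle tumours, 133, 395 and 430 CPM with 10 mg/kg and 329, 364 and 437 CPM with 30 mg/kg. All 12 dosed tumours were below all 6 vehicle tumours. Its log2 fold change was -0.40 (SE 0.17, adjusted p = 0.441) at 10 mg/kg and -0.33 (SE 0.17, adjusted p = 0.655) at 30 mg/kg. The 10 mg/kg value of 133 CPM was replicate 2, and the next lowest was 330.0 CPM. Without 10 mg/kg replicate 2 the 30 mg/kg comparison passed (adjusted p = 0.0343; over all alternatives 0.00793 to 1.00).

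H2AC13 (Entrez 8329), an H2A gene of the chromosome 6 cluster, had the smallest p of any member at 10 mg/kg. It had 64.4, 82.2 and 87.2 CPM in vehicle tumours, 34.1, 55.2 and 64.3 CPM with 10 mg/kg and 52.7, 56.1 and 64.8 CPM with 30 mg/kg. All 10 mg/kg tumours were below all vehicle tumours, the closest pair at 64.3 and 64.4 CPM, and the highest 30 mg/kg tumour, at 64.8 CPM, was just above the lowest vehicle tumour. H2AC13 fell to 0.689-fold of vehicle at 10 mg/kg (log2 -0.54, SE 0.12, edgeR adjusted p = 0.0381). At 30 mg/kg it was at 0.729-fold of vehicle (log2 -0.46, SE 0.12, adjusted p = 0.0855). The call at 10 mg/kg ended when any 1 of 12 of the 18 libraries was left out (vehicle replicates 1, 2, 4, 5 and 6, 10 mg/kg replicates 3, 4 and 6, and 30 mg/kg replicates 1, 3, 4 and 6), with adjusted p between 0.0513 and 0.135, and it ran from 0.00267 to 0.364 over all alternatives. At 30 mg/kg H2AC13 passed without vehicle replicate 3 (adjusted p = 0.0461), without 10 mg/kg replicate 2 (0.0209) and in DESeq2 (0.0139), in a range of 0.00713 to 0.977. Its count was not whole in each of the 18 libraries, so copies of near-identical sequence may share its reads.

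The most expressed H2A genes had wider spreads. H2AC20 had 174, 188 and 243 CPM in vehicle tumours, 15.6, 157 and 224 CPM with 10 mg/kg and 145, 161 and 185 CPM with 30 mg/kg. H2AC11 had 166, 208 and 241 CPM, 81.3, 161 and 281 CPM, and 143, 168 and 271 CPM in the same order of groups. For both genes the dosed and vehicle groups overlapped. H2AC19, whose counts equal those of H2AC18, had 206, 237 and 254 CPM in vehicle tumours, 58.5, 185 and 237 CPM with 10 mg/kg and 167, 181 and 243 CPM with 30 mg/kg. Log2 fold changes of the 3 genes lay between -0.40 and -0.26 at 10 mg/kg and between -0.30 and -0.18 at 30 mg/kg, and none passed (lowest edgeR adjusted p = 0.477, for H2AC19). In 10 mg/kg replicate 2 all 3 had their lowest value, and in 30 mg/kg replicate 5 their highest value at that dose. H2AC7 had the lowest log2 fold change against vehicle of any tested member at 30 mg/kg (-0.82, SE 0.31, edgeR adjusted p = 0.428) and was named after this was seen.

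H2BC18 had 237, 262 and 277 CPM in vehicle tumours, 48.8, 205 and 246 CPM with 10 mg/kg and 177, 197 and 254 CPM with 30 mg/kg. Replicate 5 was the 1 tumour at 30 mg/kg inside the vehicle range, and the next was at 202 CPM. The log2 fold change was -0.44 (SE 0.19, edgeR adjusted p = 0.455) at 10 mg/kg and -0.37 (SE 0.19, adjusted p = 0.672) at 30 mg/kg. Without 10 mg/kg replicate 2 the 30 mg/kg comparison passed (adjusted p = 0.0406; over all alternatives 0.00336 to 1.00). H2BC4 had 120, 151 and 216 CPM in vehicle tumours, 10.7, 129 and 148 CPM with 10 mg/kg and 84.7, 126 and 161 CPM with 30 mg/kg. H2BC12 had 192, 202 and 212 CPM in vehicle tumours, 74.9, 161 and 199 CPM with 10 mg/kg and 152, 162 and 219 CPM with 30 mg/kg, where all but replicate 5 were below every vehicle tumour. Neither passed at a dose, with log2 fold changes of -0.46 and -0.40 for H2BC4 and of -0.36 and -0.25 for H2BC12. The pseudogene H2BC20P, at 10.9 CPM per kb, had -0.09 and -0.15.

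H3C2, the most expressed H3 gene, had 182, 251 and 339 CPM in vehicle tumours, 53.5, 201 and 270 CPM with 10 mg/kg and 151, 198 and 378 CPM with 30 mg/kg. Both dosed groups overlapped vehicle, and 378 CPM was replicate 5. H3C10 had 105, 129 and 141 CPM in vehicle tumours, 27.8, 99.7 and 122 CPM with 10 mg/kg and 70.6, 93.8 and 146 CPM with 30 mg/kg. Apart from replicate 5, its 30 mg/kg values ended at 102 CPM, below every vehicle tumour. H3C14, whose counts equal those of H3C15, had 104, 107 and 114 CPM in vehicle tumours, 62.8, 87.0 and 107 CPM with 10 mg/kg and 73.7, 88.5 and 119 CPM with 30 mg/kg. Log2 fold changes of the 3 genes were -0.39, -0.37 and -0.31 at 10 mg/kg and -0.16, -0.34 and -0.26 at 30 mg/kg, with edgeR adjusted p of at least 0.428. H3C6 was near the detection limit, with at most 4.63 CPM in any library, and had log2 fold changes of 0.32 (SE 0.40) and -0.31 (SE 0.41).

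H4C14 and H4C15 (Entrez 8370 and 554313), which held identical counts, had the smallest standard error and the smallest p of the 49 tested members in the fit at 30 mg/kg. They had 67.3, 76.0 and 85.3 CPM in vehicle tumours, 57.5, 61.0 and 67.4 CPM with 10 mg/kg and 52.4, 57.9 and 70.8 CPM with 30 mg/kg. The 2 highest dosed values were 10 mg/kg replicate 2 and 30 mg/kg replicate 5, and the other 10 dosed tumours, at up to 62.9 CPM, were below every vehicle tumour. The log2 fold change was -0.34 (SE 0.09, edgeR adjusted p = 0.162) at 10 mg/kg and -0.36 (SE 0.09, adjusted p = 0.0731) at 30 mg/kg. The 30 mg/kg comparison passed without 10 mg/kg replicate 2 (adjusted p = 0.0316) and without 30 mg/kg replicate 5 (adjusted p = 0.0256), with a range of 0.00463 to 0.560 over all alternatives.

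The other H4 genes named varied more. H4C11 had 90.1, 157 and 178 CPM in vehicle tumours, 20.8, 110 and 139 CPM with 10 mg/kg and 86.2, 122 and 193 CPM with 30 mg/kg. H4C3 had 66.0, 79.5 and 117 CPM, 29.95, 61.6 and 80.4 CPM, and 55.7, 77.6 and 124 CPM in the same order. Both genes overlapped vehicle at both doses. H4C5 had 59.6, 65.4 and 69.1 CPM in vehicle tumours, 47.3, 62.7 and 146 CPM with 10 mg/kg and 41.6, 61.4 and 70.3 CPM with 30 mg/kg. The value of 146 CPM was replicate 2, and the other 10 mg/kg libraries reached 64.3 CPM. H4C5 thus had a log2 fold change of 0.02 (SE 0.18, edgeR adjusted p = 0.989) at 10 mg/kg, which was -0.15 without that library (adjusted p = 0.762). H4C3 was at -0.45 and -0.06 and H4C11 at -0.57 and -0.19 at 10 and 30 mg/kg, and neither passed.

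Between 30 mg/kg and 10 mg/kg no member differed by the test. Of the 14074 genes, 0 (0%) passed in edgeR and 0 in DESeq2, with 496 at unadjusted p under 0.05 (1.86% of all genes lower and 1.66% higher), of which 0 were members. Groups did not overlap for 0 members, against 0.0782% of all genes lower and 0.0639% higher. Members were below 0 in 18 of 49 cases (against 49.1% of all genes), and the median log2 fold change was 0.04 for members and 0.004 for all genes. The 3 members with the smallest p were H4C3 (log2 0.39, SE 0.19, edgeR adjusted p = 0.969), H2AC15 (0.26, SE 0.15, adjusted p = 0.969) and H3C6 (-0.64, SE 0.41, adjusted p = 0.969). H2AC15 had 25.5, 35.6 and 41.4 CPM at 30 mg/kg and 21.4, 28.4 and 34.5 CPM at 10 mg/kg, where vehicle tumours had 31.6, 37.5 and 47.5 CPM. Its dosed groups overlapped each other. Without 10 mg/kg replicate 2 and 30 mg/kg replicate 5 the median over members was -0.10 and 43 of 49 were below 0, so the side of 0 on which the members lay rested on those libraries. The data do not show that the 2 doses act alike.

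Among the genes that act on histone mRNA, none passed at either dose. This list holds 29 genes for transcription, 3′ end processing and decay. At 10 mg/kg 22 of the 29 were below vehicle with a median log2 fold change of -0.10, and at 30 mg/kg 21 were, with a median of -0.09. Of all genes, 51.2% and 50.2% were below vehicle. SLBP, which binds the stem-loop, averaged 136 ± 30.0 CPM in vehicle tumours, 119 ± 16.5 CPM with 10 mg/kg and 136 ± 46.5 CPM with 30 mg/kg (SD, n = 6 each). Its log2 fold changes were -0.20 (SE 0.18) and 0.01 (SE 0.18). NPAT averaged 31.7 ± 6.95 CPM in vehicle tumours, 19.5 ± 10.3 CPM with 10 mg/kg and 27.9 ± 7.23 CPM with 30 mg/kg, with log2 fold changes of -0.52 (SE 0.24) and -0.18 (SE 0.23). NPAT had 0 counts in 10 mg/kg replicate 2, and the mean of the other 5 was 23.4 ± 4.11 CPM. The members of this list with the smallest p were LSM10, a subunit of the particle that cuts histone pre-mRNA, with 0.62 and 0.57 at 10 and 30 mg/kg, POU2F1, which binds the octamer, with -0.38 and -0.28, and CCNE2, a cyclin of S phase entry, with -0.60 at 30 mg/kg (edgeR adjusted p of at least 0.347). The highest LSM10 value at 10 mg/kg, 42.8 CPM, was replicate 2, against a group median of 13.2 CPM.

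No gene listed as a replication-independent histone variant passed in the fit of all 18 libraries either. The list of replication-independent variants had 11 tested genes, with a median log2 fold change of -0.07 at 10 mg/kg and -0.02 at 30 mg/kg. At unadjusted p under 0.05, 2 were lower and 0 higher at 30 mg/kg, against 3.72% and 4.18% of all genes. Without 10 mg/kg replicate 2 and 30 mg/kg replicate 5, edgeR called 0 of them at 10 mg/kg and 1 at 30 mg/kg, against 0.959% and 1.51% of all genes. H2AX, the variant phosphorylated at DNA breaks, was at -0.19 and -0.30 (adjusted p = 0.585 and 0.335), and MACROH2A2 at -0.19 and -0.29 (edgeR adjusted p = 0.616 and 0.410). Of 21 histone chaperones, 18 were below vehicle at 10 mg/kg and 14 were at 30 mg/kg, against 51.2% and 50.2% of all genes. Their medians were -0.21 and -0.07, with 0 called by edgeR. Unadjusted, 3 were lower at p under 0.05 at 10 mg/kg, against 4.08% of all genes. At 30 mg/kg 4 were lower and 1 higher, against 3.72% and 4.18% of all genes. NASP, which carries soluble H3 and H4, was at -0.35 and -0.24, RBBP4, a subunit of the chromatin assembly factor, at -0.33 and -0.25, and TONSL, which binds new H4, at -0.28 and -0.41. How these lists differ from the replication-dependent genes was not tested.

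Genes of S phase were also mostly below vehicle. Of 36 replication genes tested, 35 were below vehicle at 10 mg/kg and 34 were at 30 mg/kg, against 51.2% and 50.2% of all genes. Their median log2 fold changes were -0.34 and -0.28. At unadjusted p under 0.05, 24 and 19 were lower, against 4.08% and 3.72% of all genes. None passed by edgeR after adjustment. Without the pair of libraries named above 0 passed at 10 mg/kg and 9 at 30 mg/kg, against 0.959% and 1.51% of all genes. CDT1, which licenses replication origins, was at -0.36 at both doses, MCM4, a helicase subunit, at -0.46 and -0.30, and FEN1, a flap nuclease, at -0.34 and -0.37 (adjusted p of at least 0.159). The summed S phase list was 3244 to 3752 CPM in vehicle tumours, 2578 to 3209 CPM with 10 mg/kg and 2471 to 3865 CPM with 30 mg/kg. The 3865 CPM came from 30 mg/kg replicate 5, the library with the highest histone sum, and the other 5 at that dose ended at 3195 CPM. In 10 mg/kg replicate 2, with the lowest histone sum, the S phase list was at 2633 CPM, inside the range of the other libraries of its group. The part of S phase content in the histone result was not tested.

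**Figure D4:**
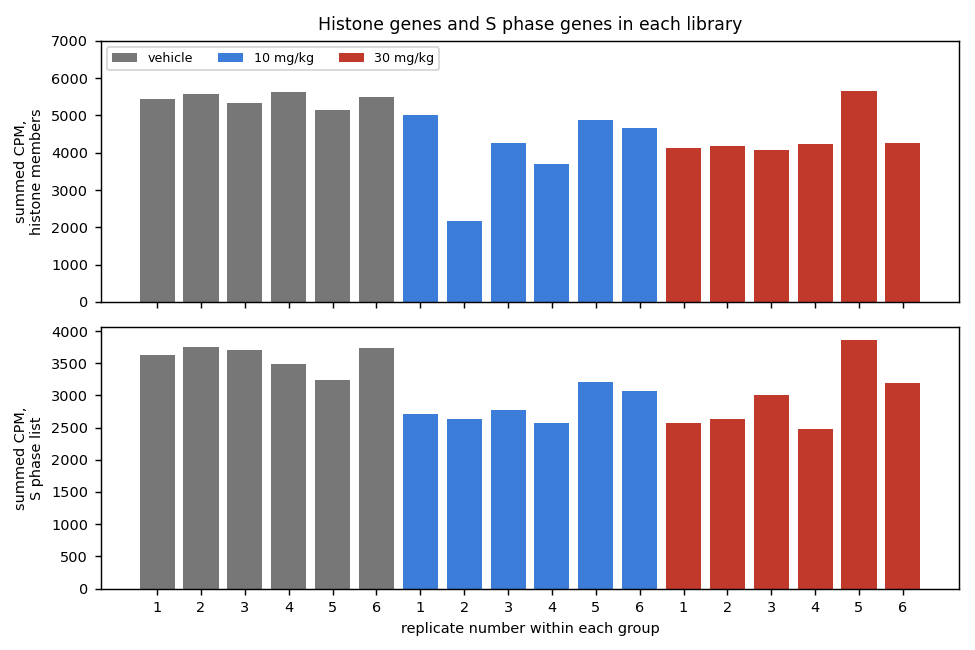
Summed CPM of the 71 histone members (top) and of the 36 S phase genes (bottom) in each of the 18 libraries, by group and replicate number, axes from 0. In 30 mg/kg replicate 5 both sums (5659 and 3865 CPM) are the highest of all libraries, and in 10 mg/kg replicate 2 the histone sum (2169 CPM) is the lowest while the S phase sum is not.

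**Figure D5:**
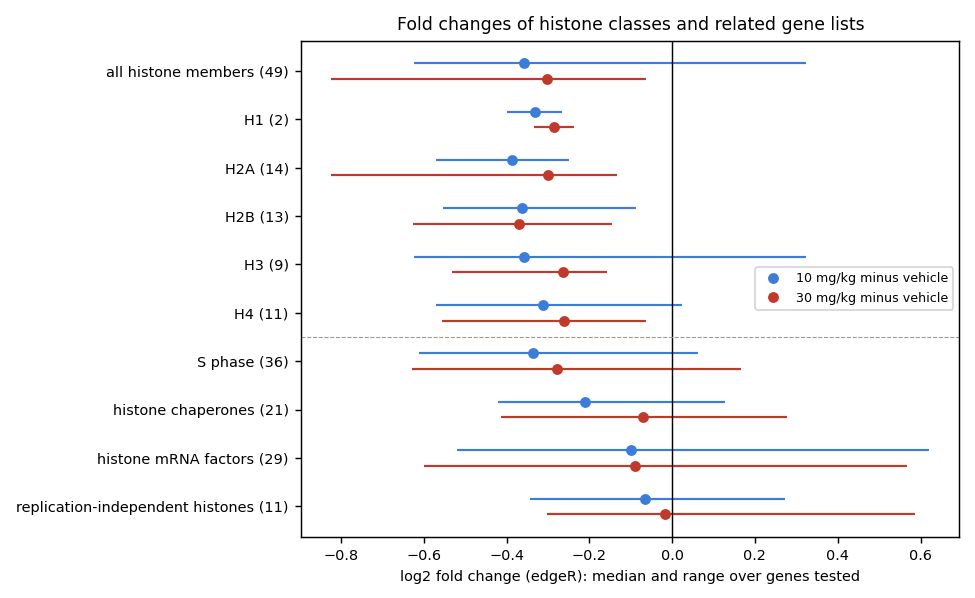
Median (points) and full range (lines) of log2 fold changes against vehicle at 10 mg/kg and 30 mg/kg for all histone members, each histone class and the 4 related gene lists, with the number of genes tested in brackets. Medians of the histone classes lie between -0.39 and -0.26 and those of the S phase list at -0.34 and -0.28, while the replication-independent histones have -0.07 and -0.02. All values are from the fit of all 18 libraries.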

How the data were processed

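Per the labels' protocols, a Promega Maxwell kit was used for extraction and a stranded total RNA kit for low input (Clontech SMARTer, Pico), starting from 5 ng, for the libraries. STAR 2.4.2a and the builds hg19 and mm10 are named in the submitters' processing notes without roles. The sources used here give neither the split of human and mouse reads nor the annotation or counting setting. Per the file headers, the authors deposited expected counts (estimated reads per gene, not scaled), TPM and transcript length. TPM, which the authors scaled for length and depth, served 1 alternative.

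Symbols came from a reference table by Entrez identifier for 25220 of 25343 rows and by transcript for 26, and 97 stayed unnamed. A further 2 rows with older histone names (H2BP1 and H3-4) fall outside the rule, and 13 reference genes that meet it have no row. Expected counts were rounded. After filterByExpr on the 3 groups, 14074 genes were scaled by TMM and fitted in 1 robust quasi-likelihood model of edgeR 4.0.16 (R 4.3.3), with p-values adjusted by Benjamini-Hochberg. The model was also run on counts simulated from the means and fitted spread of these data. That run cannot check how well the model fits these tumours. CPM per kb divides mean CPM by the deposited mean length. Library totals ran from 433989 to 8538793, which sets the precision of low genes. Members and lists were chosen with earlier results of these data known. Named members are the 3 with the highest CPM per kb in each class, those that passed, and the 3 with the smallest p in each comparison. In other lists, the 2 with the smallest p per dose were named where none passed. Marker lists covered colon epithelium, fibroblast, endothelium, leukocyte, erythroid, muscle and adipose cells. Alternatives were DESeq2 1.42.0, its size factors, library totals, no filter, at least 5 CPM in 6 libraries, a replicate block, limma 3.58.1 (voom, voom with sample weights, and trend on log2(TPM + 1)), the groups alone, and each library left out. Promoter letters and stem-loops were searched by exact match.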

Additional observations from a re-analysis of the deposited data

Results flagged for a closer look

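In groups of 6, a library was set apart when its gap to the next one exceeded 0.625 of the group's range. Of 90 groups of values examined, 14 had such a library. Chance gives about 1 in 20 for a single group. The groups share libraries, and the sums contain the single genes, so the 14 cannot be set against that rate. In 30 mg/kg, replicate 5 was high for the sum of all members (5659 CPM, next 4255 CPM) and for the sums of H1 (1033 CPM), H2A (1839 CPM) and H4 (724 CPM). The same library was high for H1-4 (594 CPM), H2AC19 (243 CPM), H2BC18 (254 CPM) and H2BC12 (219 CPM). In 10 mg/kg, replicate 2 was low for H1-2 (133 CPM), H2BC18 (48.8 CPM) and the summed histone mRNA factors (1962 CPM), and high for H4C5 (146 CPM, next 64.3 CPM). In vehicle tumours, replicate 4 was high for H2AC20 (243 CPM, next 195 CPM) and replicate 3 for the summed replication-independent histones (2577 CPM, next 2059 CPM).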

How the results depend on the processing

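The median log2 fold change of the members stayed below 0 against vehicle under every alternative run, from -0.65 to -0.27 at 10 mg/kg and from -0.38 to -0.28 at 30 mg/kg. Leaving out 1 library at a time gave medians of -0.40 to -0.27 at 10 mg/kg, -0.38 to -0.28 at 30 mg/kg and -0.052 to 0.068 between the doses. It gave 0 to 1, 0 to 5 and 0 to 0 members called, and 31 (without vehicle replicate 5) to 121 (without 10 mg/kg replicate 2), 61 (without vehicle replicate 5) to 182 (without 10 mg/kg replicate 2) and 0 to 0 genes called among all. The ratio of summed members to vehicle ran from 0.725 to 0.830 at 10 mg/kg and from 0.769 to 0.828 at 30 mg/kg, with each class between 0.673 and 0.862 and between 0.751 and 0.885. Counts of calls moved more, and the cause was not tested. At 10 mg/kg, against 66 genes and 1 member, the calls were 32 and 0 with no filter, 235 and 5 with voom sample weights, 12 and 0 with limma-trend on TPM, 159 and 4 with DESeq2, 36 and 0 with the groups compared alone, and 135 and 4 with 10 mg/kg replicate 2 and 30 mg/kg replicate 5 both left out. At 30 mg/kg, against 87 genes and 0 members, they were 57 and 0 with no filter, 315 and 6 with voom sample weights, 23 and 0 with limma-trend, 179 and 3 with DESeq2, 191 and 3 with the groups alone, and 212 and 8 with both libraries left out, and library totals called 1 member. Limma-trend put the median between the doses at 0.30, and it shifted the median of all genes at 10 mg/kg by -0.12. With the replicate block, 24 genes and 0 members were called at 10 mg/kg. Same-numbered libraries were not clearly alike: correlations of their deviations ran from -0.281 to 0.224, and 2 of 18 were best with their own number. With so few libraries this check cannot exclude pairing by replicate number. Reversed values that did not pass were H4C3 at 30 mg/kg (0.057 without vehicle replicate 3, 0.020 without 30 mg/kg replicate 2 and 0.025 without replicate 4, in a range of -0.22 to 0.057 with 1 library left out), H3C6 at 10 mg/kg (-0.23 with limma-trend) and H4C5 at 10 mg/kg (-0.046 with no filter, -0.094 with limma-voom, -0.13 with voom sample weights, -0.036 with limma-trend, -0.15 to 0.12 with 1 library left out and -0.15 with both libraries left out). Of 1184 comparisons of named members with an alternative, 1126 kept their direction and their side of the threshold. Depth limits the untested members, since 1 count in 10 mg/kg replicate 2 equals 2.14 CPM.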
